A study of Oryza sativa Indica Group with 23 samples.

Results

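IR63731 is a rice line (Oryza sativa Indica Group), and the measurements described here compare its roots after salt treatment with its roots grown without added salt. All arrays whose titles name IR63731 root were taken: 3 salt-treated and 3 control arrays, of 23 root arrays in the series. The other 17 arrays are of FL478 (3 control, 3 salt), IR29 (2 control, 3 salt) and Pokkali (3 control, 3 salt), and they entered the fit so that all genotypes shared one estimate of the spread between arrays. Each array was an Affymetrix rice array hybridised with labelled copies of total root RNA, and 57194 rice probe sets of 57381 on the array were tested after 123 AFFX and 64 RPTR control probe sets were left out.

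Plants of all 8 groups grew in sand tanks fed with nutrient solution and were harvested on day 30. In the salt groups NaCl and CaCl2, at a molar ratio of 5 to 1, were added to the solution from day 22 in 2 steps over 3 days until the salinity reached 7.4 dS/m. The control groups received the solution without this addition. The labels call the arrays biological replicates but do not say how many plants each one held or whether the tanks were separate, so p-values measure the spread between these samples, which may be partly technical. The sources used here do not describe the salt tolerance of IR63731. For the other lines, Pokkali is known as a tolerant landrace, IR29 as a sensitive variety and FL478 as a tolerant line bred from a cross between them.

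Roots in saline solution meet a water deficit first and an accumulation of sodium later. Rice is known to answer with compatible solutes such as proline, with protective proteins, with transport proteins that keep sodium out of the shoot and potassium in the cell, and with slower growth. Much of this is set by abscisic acid, and rapid stress and wounding signals run through jasmonate, calcium-dependent kinases and factors of the DREB and MYB families.

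The tissue carried the marks of root. The silicon transporters Lsi1 and Lsi2 of the root exodermis and endodermis lay at 13.15 to 13.71 and 11.54 to 12.34 on the log2 scale of the deposited RMA (robust multi-array average) values, and the phosphate exporter PHO1-2 and the iron transporter IRT1 at 11.91 to 12.40 and 10.84 to 12.67, against a median of 4.38 over all probe sets. OsCASP1, which marks the Casparian strip of the endodermis, lay at 9.66 to 10.32, while the regulators SHR1 and SCR1 were lower, at 6.37 to 7.14 and 4.41 to 4.99. None of the 8 root markers passed the test between salt and control, which 0.0717% of all probe sets did. Anther markers were low, with a median level of 4.08 over 6 genes, and seed markers had a median level of 3.39 over 8 genes, with GLUA-2 the highest at 7.97 to 8.46. Of 3 shoot markers, RBCS1 lay at 2.40 to 2.66 and RBCS at 6.55 to 6.79, but the chlorophyll-binding protein gene CAB2R read 9.54 on control array 3 and 6.10 to 6.82 on the other 5 arrays.

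All 6 arrays were of one kind in their genotype. At the 86 to 94 probe sets where IR63731 differed by at least 2 log2 units from each of the other genotypes in the same direction, the IR63731 arrays lay at 0.98 to 1.00 on a scale on which the mean of the other genotypes is 0 and IR63731 is 1, and 14 of the other arrays lay at -0.04 to 0.06. Control array 3 of FL478 lay at 0.24, control array 1 of IR29 at 0.48 and salt array 2 of FL478 at 0.65, that is, part of the way towards IR63731. Values without those 3 arrays are given beside the comparisons with FL478 and IR29 that turn on them, an alternative chosen for these comparisons after seeing the data, in which IR29 has 1 control array that is assumed to vary like the other groups. Array medians ran from 4.31 to 4.39 in IR63731 and from 4.31 to 4.41 over the series.

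Salt changed few transcripts beyond the spread between arrays in IR63731. In the limma fit over all 23 arrays, salt-treated roots had 17 higher and 24 lower probe sets than control roots at a Benjamini-Hochberg adjusted p below 0.05, that is 0.0297% and 0.0420% of those tested, or 0.0717% together. The changes were of moderate size: 11 of the higher and 8 of the lower probe sets passed 2-fold. All 41 had their 3 salt arrays on one side of the 3 control arrays, as did 14.9% of all probe sets. A further reading of the size of the response is that 4699 probe sets, 8.22%, had an unadjusted p below 0.05. When the replicate number was added as a block, the counts became 106 higher (0.185%) and 93 lower (0.163%), together 0.348%, and these included all 41. Without FL478 control array 3, FL478 salt array 2 and IR29 control array 1 the counts were 24 higher and 22 lower, with 28 of the 41 among them.

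**Figure D1:**
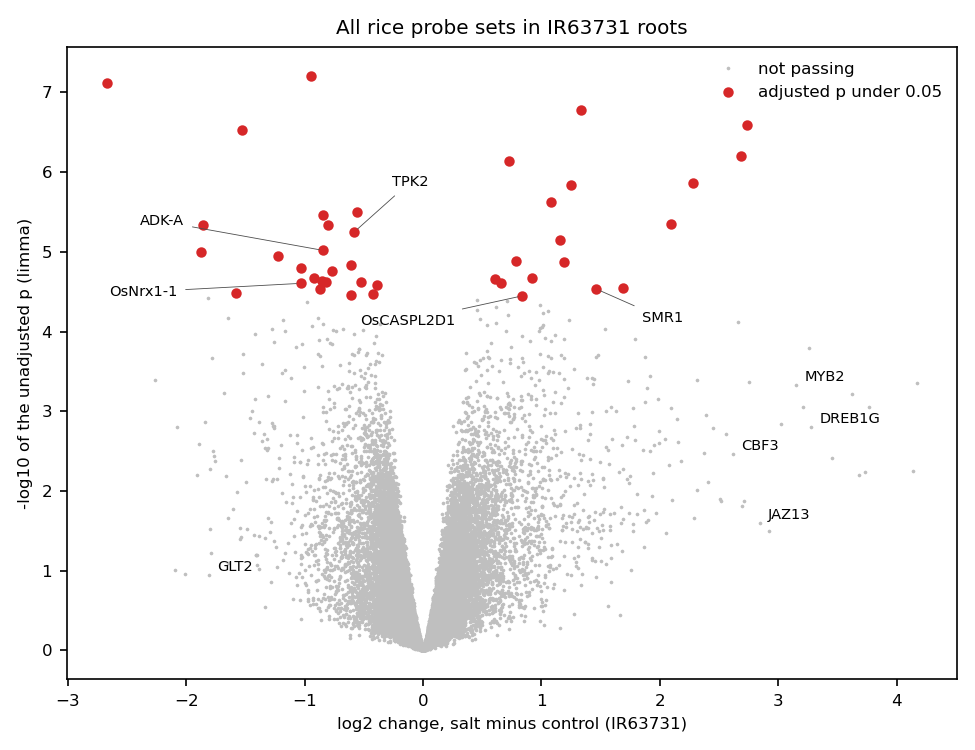
Each point is a rice probe set in IR63731 roots, with the log2 change (salt minus control) on the horizontal axis and minus log10 of the unadjusted limma p on the vertical axis; red points have an adjusted p below 0.05. The 41 red points lie between changes of -2.67 and 2.74, while MYB2, DREB1G, CBF3 and JAZ13 changed by more than 2.5 log2 units and did not pass.

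The count rested on single arrays. It was 7 without control array 1, 39 without control array 2, 11 without control array 3, 9 without salt array 1, 37 without salt array 2 and 15 without salt array 3. In the same order, 7, 23, 10, 9, 15 and 13 of these were among the 41. Without salt array 2 the calls were 26 higher and 11 lower. Of the 41 probe sets, 6 passed in all 6 of these fits and 13 in none. All 41 kept their direction in each, which was given in advance because their salt and control arrays did not overlap.

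Of the 41 probe sets, 24 carry 1 listed gene and 5 of these genes have a name. SMR1, a gene of the SIAMESE-related inhibitors that restrain cyclin-dependent kinases and with them cell division, rose. Its control arrays read 7.09, 7.85 and 6.80 and its salt arrays 8.88, 8.77 and 8.49, so every salt array lay above every control array. The log2 change was 1.46 (SE 0.27, n = 3 against 3, limma adjusted p = 0.0453). SMR1 passed without control array 2 (adjusted p = 0.0173) and lost the call without any 1 of the other 5 arrays (adjusted p 0.0904 to 0.289). Its change was 1.31 in FL478, 1.80 in IR29 and 0.30 in Pokkali, and 0.98 in FL478 and 1.58 in IR29 without the 3 arrays between genotypes.

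OsCASPL2D1, of the family of Casparian strip membrane protein-like genes, also rose. Control arrays read 9.18, 9.52 and 8.88 and salt arrays 9.87, 10.16 and 10.06, a log2 change of 0.84 (SE 0.16, n = 3 against 3, limma adjusted p = 0.0497). The groups did not overlap, and the highest control value and the highest salt value both belonged to replicate number 2. The call was lost without any 1 array other than control array 2 (adjusted p 0.111 to 0.298), and the change was close to that in FL478 (1.00), IR29 (0.99) and Pokkali (0.82).

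OsNrx1-1, a nucleoredoxin of the thioredoxin family that acts on protein disulfides, fell. Its control arrays read 10.52, 10.41 and 10.39 and its salt arrays 9.49, 9.25 and 9.49, a log2 change of -1.03 (SE 0.19, n = 3 against 3, limma adjusted p = 0.0430). ADK-A, an adenylate kinase that interconverts adenine nucleotides, fell by 0.84 log2 units (SE 0.14, limma adjusted p = 0.0303), from 12.57, 12.53 and 12.64 in control to 11.80, 11.63 and 11.79 in salt. In both genes the SD of a group of 3 arrays was at most 0.14, and the groups lay far apart relative to it. Neither passed when any 1 array was left out (adjusted p 0.0877 to 0.208 for OsNrx1-1 and 0.0557 to 0.175 for ADK-A).

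TPK2 fell from 8.23, 8.02 and 8.30 in control to 7.56, 7.67 and 7.60 in salt, a log2 change of -0.58 (SE 0.09, n = 3 against 3, limma adjusted p = 0.0200). It passed without control array 2 and without salt array 2, and lost the call without any 1 of the other 4 arrays (adjusted p 0.0853 to 0.165). The 3 lower genes also had lower values after salt in the other genotypes, where OsNrx1-1 changed by -0.92, -0.81 and -1.53, ADK-A by -0.93, -0.90 and -0.66 and TPK2 by -0.39, -0.43 and -0.43 in FL478, IR29 and Pokkali. With the 3 arrays between genotypes left out, the changes in FL478 and IR29 were -0.65 and -0.45 for OsNrx1-1, -1.09 and -0.70 for ADK-A and -0.38 and -0.36 for TPK2.

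The most stable calls lay in probe sets to which the annotation used here gives no single gene. All 6 that passed in every leave-one-out fit are of this kind, 3 of them higher and 3 lower. Os.4819.1.A1_s_at rose from 5.01, 5.33 and 6.25 to 8.27, 7.61 and 8.91, a log2 change of 2.74 (limma adjusted p = 0.00341), with changes of 2.43, 2.12 and 2.45 in FL478, IR29 and Pokkali. Its suffix marks a probe set that can bind more than 1 transcript. OsAffx.15785.1.S1_at fell from 7.02, 6.04 and 7.64 to 4.36, 4.13 and 4.20, a log2 change of -2.67 (limma adjusted p = 0.00220), to a level near the median probe set in all salt arrays. Os.11337.1.S1_at lay at a high level and fell from 12.47, 12.38 and 12.47 to 11.52, 11.43 and 11.53, with an SD of 0.06 in control and 0.05 in salt (limma adjusted p = 0.00220).

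The replicate number moved the values of IR63731 arrays. Taking it out as a block brought 15 more named genes over the threshold, for 20 in all, counted at any of their probe sets. In the plot of genes by array, the lines that join same-numbered arrays run almost parallel for HXK6. Proline synthesis is a main route to a compatible solute under salt, and its enzyme gene P5CS2 read 5.27, 5.69 and 5.40 in control and 6.73, 6.45 and 6.51 in salt. The log2 change was 1.11 (SE 0.23), with a limma adjusted p of 0.0811 without the block and 0.0141 with it. Of its 4 probe sets this is the one with the highest level, and over all 4 the changes ran from -0.05 to 1.11. The beta-expansin gene EXPB18, of a family that loosens cell walls, read 5.79, 5.56 and 5.63 in control and 6.52, 6.64 and 6.98 in salt (change 1.05, limma adjusted p 0.0635 without and 0.0390 with the block).

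Among kinases, CCAMK, the calcium and calmodulin-dependent kinase of root symbiosis, passed with the block with a change of 0.63 (limma adjusted p 0.230 without, 0.0431 with). The methionine sulfoxide reductase gene MSRB5, which repairs oxidised methionine, changed by 0.77 (0.334 without, 0.0339 with), the GTPase gene NUG2 by 0.54 (0.0766 and 0.0384) and the Elongator subunit gene ELP3 by 0.34 (0.170 and 0.0468). These 6 genes, with SMR1 and OsCASPL2D1, are the named genes that were higher in the blocked fit, 8 in all.

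On the lower side, 12 named genes passed with the block at any of their probe sets, and 11 did at the probe set with the highest level. The hexokinase gene HXK6, whose enzyme opens the use of glucose, read 7.04, 7.27 and 6.83 in control and 6.33, 6.57 and 6.03 in salt. Its 3 same-number pairs moved almost alike, and the change of -0.74 had a limma adjusted p of 0.301 without and 0.00723 with the block. PIN5A, an auxin transporter gene, read 8.78, 8.16 and 9.48 in control and 7.53, 7.14 and 7.82 in salt (change -1.31, adjusted p 0.267 without and 0.0205 with the block). The bZIP factor gene BZIP52 read 9.15, 9.28 and 9.01 in control and 8.14, 8.32 and 7.92 in salt (change -1.02, 0.0894 and 0.0175).

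CAO, ISP and HO1 were also among the 12. CAO, chlorophyllide a oxygenase of chlorophyll b synthesis, read 7.55, 5.86 and 8.36 in control and 5.52, 4.43 and 6.90 in salt, so its groups overlapped across numbers while each salt array lay below the control array of its own number. The change was -1.65 (SE 0.89), with a limma adjusted p of 0.676 without the block and 0.0384 with it. ISP, which RefSeq also names for the Rieske protein of the chloroplast cytochrome complex, changed by -1.18 (0.0732 and 0.0419), and HO1, a heme oxygenase of phytochrome chromophore synthesis, by -0.74 (0.0766 and 0.0185). The shoot marker CAB2R did not pass (limma adjusted p = 0.759, and 0.632 with the block). It read 6.46, 6.10 and 9.54 in control and 6.18, 6.10 and 6.82 in salt, so the pair of number 2 was equal, only control array 3 was high, and the change was 0.09 without that array. In RNA of whole roots fewer cells of a type and less RNA per cell cannot be told apart.

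The remaining named genes that passed only with the block were the pyruvate dehydrogenase subunit gene PDHE1-B (change -0.36, limma adjusted p 0.0455 with the block), the beta-glucosidase gene BGLU3 (-0.85, 0.0222) and Pi21, a gene of blast susceptibility. In the list of 27 beta-glucosidase genes, each taken at its highest probe set, no member passed with the block. Pi21 passed at 2 probe sets, with changes of -0.53 (0.0384) and -0.89 (0.0231). At these probe sets the change of Pi21 was 0.10 and -0.15 in FL478, -0.31 and -0.37 in IR29, and -0.26 and 0.14 in Pokkali.

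**Figure D2:**
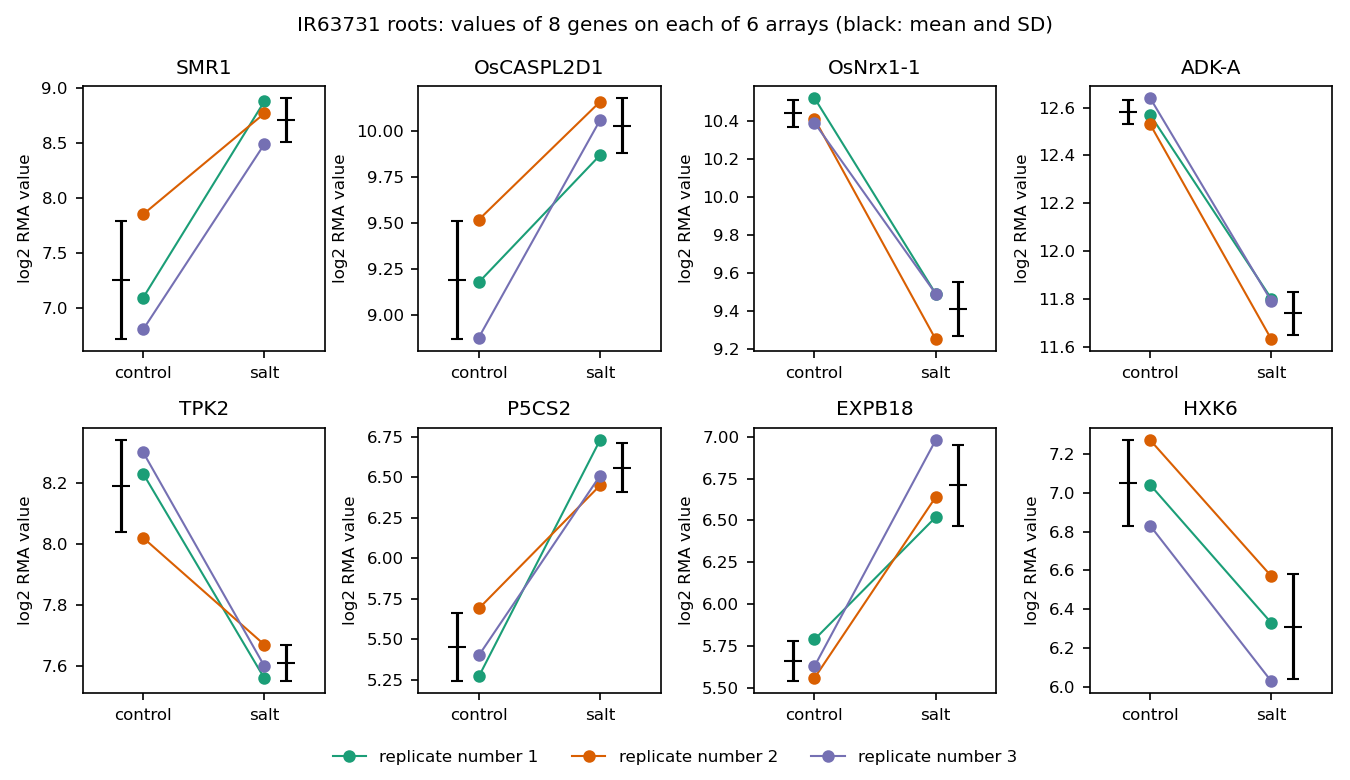
Log2 RMA values of 8 genes on the 6 IR63731 arrays; coloured lines join the control and salt arrays of the same replicate number, and black marks give the mean and SD of 3 arrays. SMR1, OsCASPL2D1, OsNrx1-1, ADK-A and TPK2 passed in the fit of all arrays, and P5CS2, EXPB18 and HXK6 passed when the replicate number was a block.

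Larger changes than these were measured in genes that did not pass. Among 2458 named genes, 21 changed by more than 1.5 log2 units in IR63731, 18 higher and 3 lower, and none of the 21 passed without the block (CAO alone passed with it), while 10 of the 143 probe sets of that size did. In 20 of the 21 genes the 3 salt arrays lay wholly on one side of the 3 control arrays. Among all 2458 named genes, 491 did so. These genes were picked by their size, so the counts are a description.

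DREB1G had the largest change of the 21. It belongs, with CBF3 and DREB1B, to the DREB1-type genes, which encode AP2-domain factors best known for the cold response. DREB1G read 3.13, 3.92 and 3.24 in control and 6.89, 6.65 and 6.57 in salt, a change of 3.28 (SE 0.89, limma adjusted p = 0.215). CBF3, also named DREB1A, read 5.68, 7.61 and 5.10 in control and 8.86, 8.68 and 8.69 in salt (change 2.61, limma adjusted p = 0.282), and DREB1B read 6.24, 7.55 and 5.07 and then 8.91, 9.33 and 8.76 (2.71, 0.427). In each of these 3 genes the salt arrays lay closer together than the control arrays, and control array 2 was the highest control. The SE comes from the spread over all groups, and arrays of some other groups differed widely: Pokkali control arrays of DREB1G ran from 4.35 to 6.49 and FL478 control arrays from 3.37 to 6.88.

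JAZ13 is one of the JAZ repressors, which jasmonate itself induces, and it read 7.20, 8.22 and 4.38 in control and 10.44, 8.64 and 9.26 in salt (change 2.84, SE 1.17, limma adjusted p = 0.511). JAZ12 read 8.28, 7.82 and 7.16 and then 10.68, 8.32 and 9.96 (1.90, SE 0.77, 0.500). TIFY11C, TIFY11B and TIFY11A, of the same family, changed by 1.87, 1.68 and 1.64, and AOS1, the allene oxide synthase that commits a precursor to jasmonate, by 1.52 (limma adjusted p = 0.356). In JAZ12, JAZ13, TIFY11A, TIFY11B, TIFY11C and AOS1, salt array 1 was the highest and salt array 2 the lowest of the salt arrays.

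MYB2, a MYB factor gene, read 4.99, 5.95 and 3.32 in control and 8.43, 7.85 and 7.45 in salt (change 3.15, SE 0.74, limma adjusted p = 0.140). The heat shock factor gene HSF07 (2.15, 0.250), the bHLH factor gene BHLH148 (2.29, 0.490) and WRKY71 (1.97, 0.473) had the same direction, as did the calcium-dependent kinase gene CPK21 (1.88, 0.101). CPK21 read 3.32, 3.75 and 3.02 in control and 6.33, 4.53 and 4.88 in salt, so salt array 1 stood well above the other salt arrays. The trehalose phosphate phosphatase gene TPP7 changed by 1.81 (0.403) and the wall-related gene BC1L9 by 1.89 (0.144). On the lower side were the heat shock factor gene HSF05 (-1.54, 0.301), CAO and the glutamate synthase gene GLT2 (-1.80, 0.726).

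In FL478 and Pokkali the 5 JAZ and TIFY genes, AOS1, WRKY71 and BHLH148 had changes below 0, and MYB2 changed by 0.08 and 0.03 there and by 1.51 in IR29. JAZ13 was above 0 in FL478, at 0.28, when the 3 arrays between genotypes were left out, and the other 7 stayed below 0. In IR29 the salt arrays of MYB2 (6.68 to 7.19 against 5.30 and 5.41), CBF3 (6.54 to 7.49 against 5.27 and 6.45) and HSF07 (5.34 to 5.62 against at most 4.94) also lay above the control arrays, and BC1L9 changed by 1.82 there. JAZ12 changed by -1.37 in FL478, -0.12 in IR29 and -1.46 in Pokkali, and its difference between IR63731 and the mean of the other 3 was 2.89 (SE 0.90, limma unadjusted p = 0.00468, adjusted p = 1.0). The difference was 3.05 for DREB1G (SE 1.04, unadjusted p = 0.00845), 2.61 for MYB2 (SE 0.87, 0.00737), 2.62 for WRKY71 (SE 0.89, 0.00882) and 2.06 for AOS1 (SE 0.59, 0.00238). None of these differences passed after adjustment, at an adjusted p of 1.0 in each. They were, without the 3 arrays, 2.64 for JAZ12 (SE 0.97, unadjusted p = 0.0154), 2.89 for DREB1G (SE 1.11, 0.0193), 2.64 for MYB2 (SE 0.91, 0.0104), 2.26 for WRKY71 (SE 0.93, 0.0272) and 1.90 for AOS1 (SE 0.65, 0.0104), again at an adjusted p of 1.0. The level of JAZ12 in IR63731 salt roots, 8.32 to 10.68, lay within the range of the other lines, as Pokkali control arrays read 9.72 to 10.73.

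**Figure D3:**
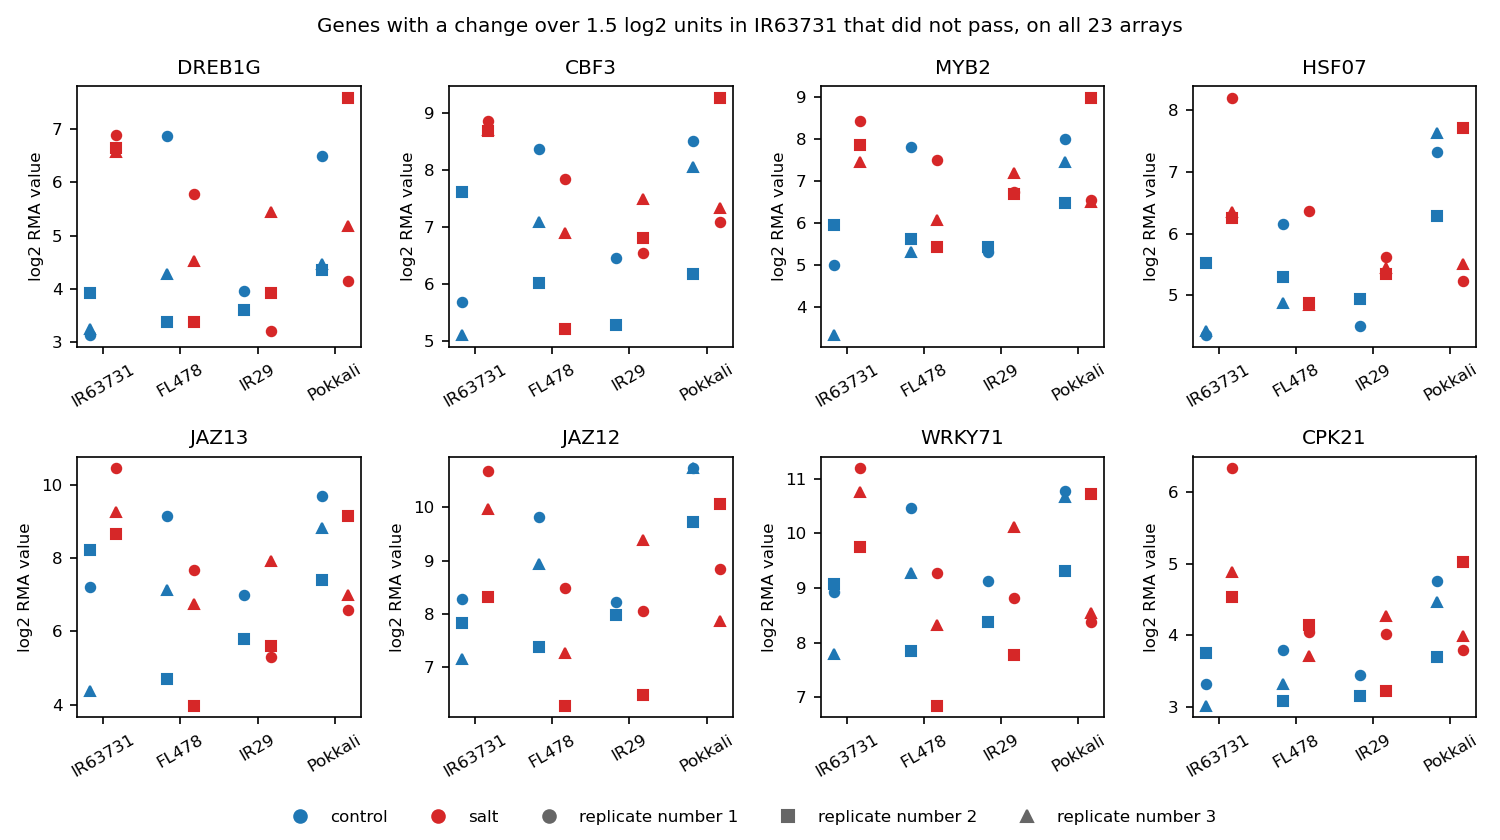
Log2 RMA values of 8 genes that changed by more than 1.5 log2 units in IR63731 without passing, on all 23 arrays; control arrays are blue, salt arrays red, and the symbol gives the replicate number. In IR63731 all red symbols lie above all blue ones. In FL478 and Pokkali the colours overlap in all 8 genes, and in IR29 the red symbols of MYB2, CBF3 and HSF07 lie above the blue ones.

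The genes best known from work on rice under salt did not pass in IR63731, P5CS2 with the block excepted. Of all 17905 genes only 8 passed higher and 16 lower, or 67 and 60 with the block. At such shares a set this small would seldom hold a call. HKT1;5, the sodium transporter that withdraws sodium from the xylem and underlies a salt tolerance locus, read 6.24, 6.10 and 7.74 in control and 8.61, 8.02 and 8.67 in salt (change 1.74, SE 0.68, limma adjusted p = 0.474). The potassium channel gene AKT1 read 12.06, 11.67 and 12.16 and then 11.39, 10.90 and 11.34 (-0.75, SE 0.24, 0.342). P5CS1, the other proline synthesis gene, had a change of 0.00 to 2 decimals (0.998).

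BURP10, of a family of wall-associated proteins, read 9.20, 8.57 and 7.25 in control and 9.98, 9.86 and 10.23 in salt (1.68, SE 0.49, limma adjusted p = 0.256), and BURP2 read 10.50, 11.41 and 11.79 and then 10.71, 9.62 and 8.91 (-1.48, SE 0.63, 0.530). The lectin gene SalT, known as salt-induced in rice, had lower values in salt, 9.16 to 9.61 against 9.85 to 10.24 (-0.65, 0.420). The dehydrin gene RAB21, also named RAB16A, changed by 0.53 (0.578), Dhn1 by -0.27 (0.883), LEA19 by 0.26 (0.780), NAC6 by 0.31 (0.819) and DREB2A by 0.28 (0.813). Over the 3 probe sets of Dhn1 the changes ran from -0.27 to 0.34, and over the 2 of BURP2 from -1.48 to -0.29. RAB21 read 4.47 to 5.29 on all 6 arrays, close to the level of the median probe set. SOS1, NHX1, SNAC1 and HKT2;1 were sought by name and not found among the named genes, so no values are given for them.

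Lists of genes grouped by function held few calls. Over 17905 genes, each taken at its highest probe set, 8 were higher and 16 lower, and the median log2 change was 0.02. Without adjustment, 1302 (7.27%) were higher and 853 (4.76%) lower at a p below 0.05, 53.8% had a change above 0 and 46.2% below 0, and 18.6% had groups that did not overlap. The counts within lists are read against these shares and are given with no test. With so few passing genes, a list without a passing member says little about its genes. Of 45 cell cycle genes SMR1 was the only one to pass, of 49 genes of the phenylpropanoid, lignin and Casparian strip list OsCASPL2D1 was the only one, and no member passed in any of the other 37 lists. With the block, the lists of osmolytes (P5CS2), cell wall loosening (EXPB18), calcium sensors and kinases (CCAMK), sugar (HXK6), auxin (PIN5A) and bZIP and MYB factors (BZIP52) gained 1 member each.

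**Figure D4:**
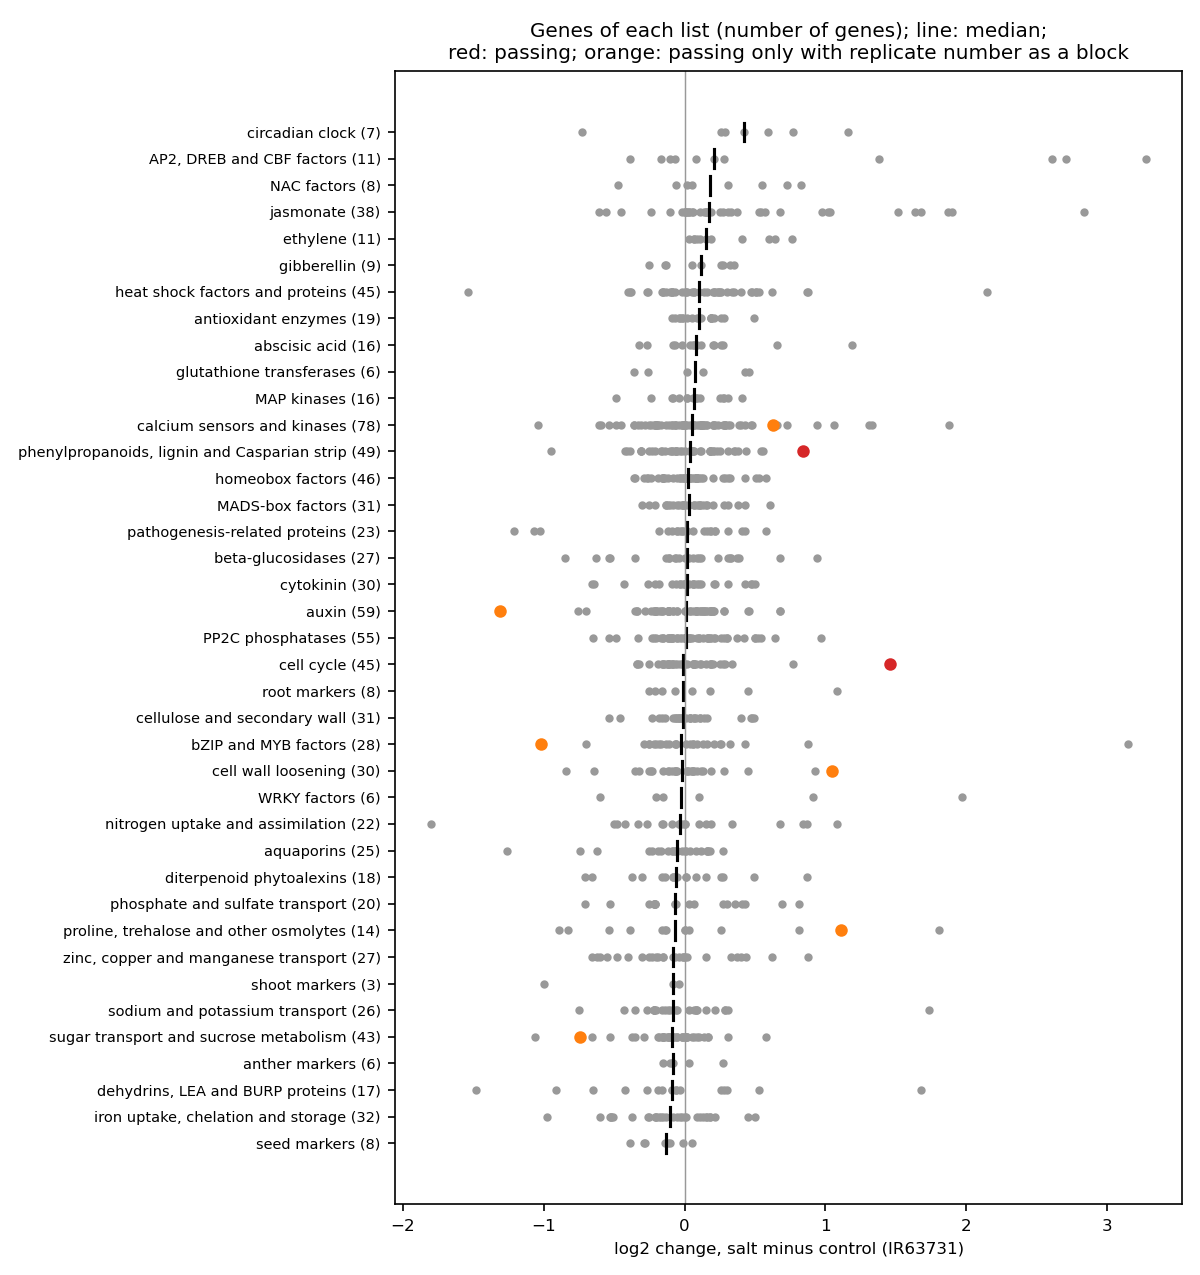
Log2 change (salt minus control) of each gene in 39 lists in IR63731, with the number of genes in brackets and the median as a black line; red genes passed, and orange genes passed only with the replicate number as a block. Medians of the lists lie between -0.13 and 0.42, and the points furthest to the right belong to the AP2, jasmonate, heat shock and MYB lists.

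Of 38 jasmonate genes 31 were above 0 (81.6%, against 53.8% of all genes), with a median change of 0.18. At an unadjusted p below 0.05, 9 were higher (23.7%, against 7.27% of all genes) and 1 lower (2.63%, against 4.76%). In JAZ12, JAZ13, TIFY11A, TIFY11B, TIFY11C and AOS1, FL478 control array 1 was the highest and control array 2 the lowest of their group. JAZ13 read 9.15 and 4.71 on these arrays, and TIFY11C 9.92 and 6.53. Such members varied together within a group, so the shares do not count separate readings. How far the rest of the list did so was not tested. The median of the same 38 genes was -0.52 in FL478, 0.07 in IR29 and -0.35 in Pokkali, and -0.33 in FL478 and 0.09 in IR29 without the 3 arrays between genotypes. The lipoxygenase gene LOX2 of the same route read 6.16, 6.83 and 6.25 in control and 7.06, 6.96 and 6.83 in salt, and AOS3 had lower values in salt, 4.39 to 4.93 against 5.01 to 5.31 (change -0.61, limma adjusted p = 0.428). Neither passed, and no gene of the list passed with the block.

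All 11 ethylene genes had a change above 0, between 0.03 and 0.76, with a median of 0.15 and 2 higher at an unadjusted p below 0.05 (18.2%, against 7.27% of all genes). ACO1, for the last step of ethylene synthesis, read 4.72, 4.76 and 4.84 in control and 5.19, 5.38 and 5.55 in salt (change 0.60, SE 0.23, limma adjusted p = 0.458). The synthase gene ACS2 for the step before it read 6.78, 6.82 and 6.78 and then 7.24, 7.39 and 7.68. The list had medians of 0.07, 0.10 and 0.13 in FL478, IR29 and Pokkali, and of 0.16 and 0.13 in FL478 and IR29 without the 3 arrays.

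Abscisic acid genes centred on 0.08 over 16 members. The member with the largest change was ABA8OX1, for the hydroxylase that begins abscisic acid breakdown, at 8.56, 9.46 and 8.75 in control and 10.04, 10.27 and 10.02 in salt (1.19, SE 0.29, limma adjusted p = 0.163). Of 55 PP2C phosphatase genes, a family that includes repressors of abscisic acid signalling, 6 were higher and 4 lower at an unadjusted p below 0.05, that is 10.9% and 7.27%, against 7.27% and 4.76% of all genes.

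Of 43 genes of sugar transport and sucrose metabolism, 30 had a change below 0 (69.8%, against 46.2% of all genes), and the median was -0.09. At an unadjusted limma p below 0.05, 6 of the 43 were lower (against 4.76% of all genes) and none higher (against 7.27%), and HXK6 passed with the block. The sugar exporter gene SWEET4 read 11.06, 10.17 and 10.77 in control and 9.70, 9.75 and 9.35 in salt (-1.06, SE 0.30, limma adjusted p = 0.230). The sucrose phosphate synthase gene SPS3 changed by -0.35 and the cell wall invertase gene CIN2 by -0.66. The list had medians of -0.08, -0.08 and -0.14 in FL478, IR29 and Pokkali.

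Of the 14 osmolyte genes, 6 had groups that did not overlap (42.9%, against 18.6% of all genes). Trehalose phosphate phosphatase genes, picked from them after their values were seen, included changes in both directions. TPP7 was higher in salt on all 3 arrays, while TPP9 read 8.96, 8.94 and 9.32 in control and 8.19, 8.14 and 8.41 in salt (-0.83, SE 0.26, limma adjusted p = 0.308). TPP2 changed by -0.89 and TPP10 by -0.54. None of the 4 passed, with or without the block.

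Ion and water transport showed no passing member. Of 26 sodium and potassium transport genes 2 were higher and 4 lower at an unadjusted p below 0.05 (7.69% and 15.4%, against 7.27% and 4.76% of all genes), the potassium transporter gene HAK10 among the lower ones at -0.43. The aquaporin list of 25 genes had a median of -0.05, and PIP2-5 read 11.61, 12.10 and 12.70 in control and 10.66, 10.34 and 11.64 in salt (-1.26, SE 0.58, limma adjusted p = 0.586), so that its groups overlapped. Of 27 zinc, copper and manganese transport genes 4 were higher and 6 lower at that threshold (14.8% and 22.2%, against the same 7.27% and 4.76%), with the copper pump gene HMA5 at 10.48, 10.49 and 10.62 in control and 9.86, 9.78 and 10.17 in salt (-0.60, limma adjusted p = 0.144).

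In nitrogen uptake the nitrate transporter gene NRT2.2 read 9.54, 9.50 and 9.36 in control and 10.57, 10.16 and 10.92 in salt (1.08, SE 0.39, limma adjusted p = 0.417). The ammonium transporter gene AMT3-3 read 3.91, 4.10 and 3.33 and then 4.40, 4.40 and 5.05 (0.84, 0.234). The iron list of 32 genes had 21 below 0, where 46.2% of all genes were, and a median of -0.11, against medians of -0.19, -0.10 and -0.05 in FL478, IR29 and Pokkali. VIT1, a vacuolar iron transporter gene, read 7.16, 7.09 and 7.39 in control and 6.76, 6.72 and 6.59 in salt (-0.52, 0.288).

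No antioxidant gene passed. Of 19 antioxidant genes 3 were higher (15.8%, against 7.27% of all genes) and none lower at an unadjusted limma p below 0.05, and none passed with the block. The higher ones were led by the peroxiredoxin gene PRXIIC at 11.36, 11.16 and 10.95 in control and 11.55, 11.67 and 11.72 in salt (0.49, SE 0.11, limma adjusted p = 0.121). Its 3 probe sets changed by 0.01 to 0.49. The chaperone gene CLPB1, which resolves protein aggregates, read 5.89, 6.17 and 6.12 and then 6.43, 6.52 and 6.82 (0.53, 0.177). The calmodulin-like gene CML20 read 4.77, 4.58 and 4.55 and then 5.74, 5.53 and 5.79 (1.06, SE 0.23, 0.101).

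The changes called in IR63731 had the same direction in the other lines. Of the 41 probe sets 40 had the same sign in FL478, 39 in IR29 and 41 in Pokkali, and 39 in all 3, where over all probe sets 60.2%, 63.2%, 59.9% and 29.6% did. In these lines 27, 29 and 26 of the 41 passed as well, 18 of them in all 3 and all but 4 in at least 1. Of all probe sets 0.960%, 0.343% and 0.341% passed there. The genotypes share 1 estimate of the spread per probe set, so a small estimate favours a pass in every line. These passes are therefore not independent of the calls in IR63731. Without the 3 arrays between genotypes, 40, 39 and 41 kept the sign and 38 did in all 3, but 17, 5 and 24 passed, 4 of them in all 3 and 14 in none. The median change of the 17 higher probe sets was 1.19 in IR63731, 1.00 in FL478, 1.17 in IR29 and 0.67 in Pokkali, and that of the 24 lower ones was -0.85, -0.59, -0.74 and -0.67. The medians without the 3 arrays were 1.00 and -0.61 in FL478 and 1.11 and -0.58 in IR29. Since the 41 were called in IR63731, their change there was larger than the mean of the others in 31 of them, which the choice favours.

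**Figure D5:**
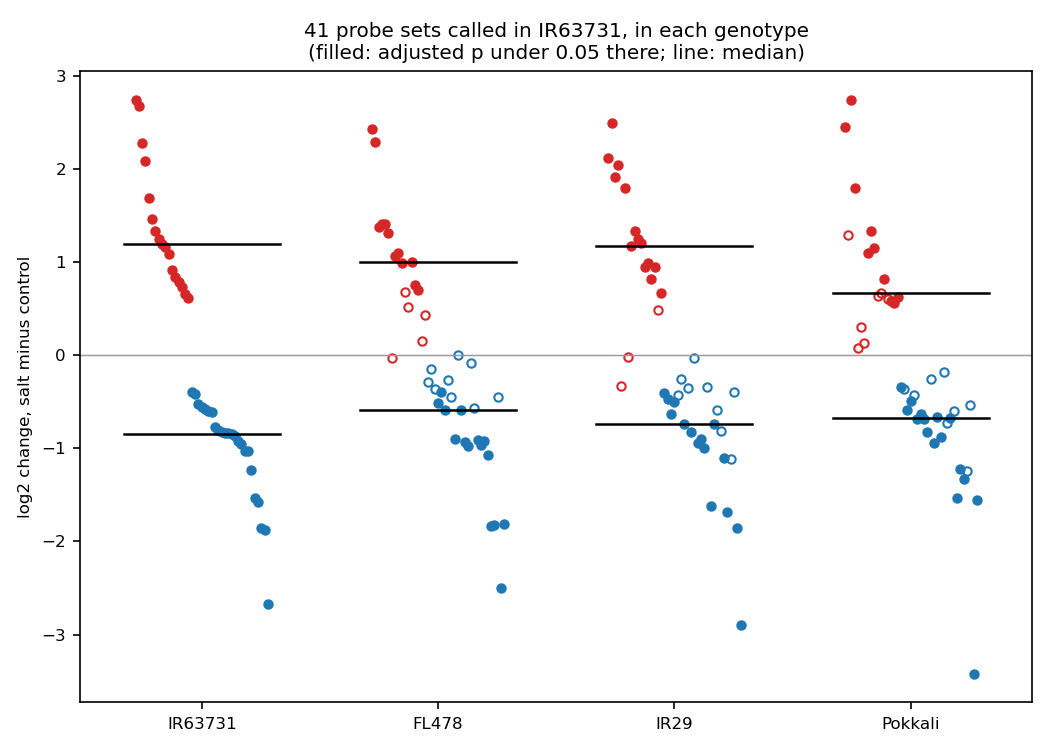
Log2 change (salt minus control) in each genotype of the 41 probe sets called in IR63731, red where higher and blue where lower there; filled circles passed in that genotype and black lines are medians. The higher probe sets have medians of 1.19, 1.00, 1.17 and 0.67 and the lower ones of -0.85, -0.59, -0.74 and -0.67 from left to right.

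Read the other way, probe sets called in another line mostly moved in the same direction in IR63731 by a smaller amount. FL478 had 549 calls (0.960% of those tested), of which 507 had the same direction in IR63731 (92.3%) and 27 passed there, with a median change along the FL478 direction of 0.36 in IR63731 against 0.89 in FL478. For 196 calls in IR29 (0.343%) the values were 185 (94.4%), 29, 0.55 and 0.96, and for 195 calls in Pokkali (0.341%) they were 172 (88.2%), 26, 0.40 and 0.89. FL478 had 153 calls without the 3 arrays, of which 145 had the same direction in IR63731 and 21 passed there, and IR29 had 24, of which 22 had the same direction and 8 passed. The larger value in the line where a probe set was called is favoured by the choice. A pass in IR63731, where 0.0717% of all probe sets passed, is favoured by the shared estimate of the spread. In the fit of all arrays without the block the count of calls was thus lower in IR63731 than in FL478, IR29 and Pokkali. With the block IR63731 had 199 calls, and no blocked count was made for the other lines. Without the 3 arrays IR29 has 1 control array and a median SE of 0.185, against 0.131 in Pokkali. The counts of IR63731 and IR29 are therefore not compared in that fit. The fit of all arrays had the same median SE of 0.131 in IR63731, FL478 and Pokkali and 0.147 in IR29, and 459 probe sets passed 2-fold in IR63731 against 764, 516 and 482. The difference between these counts was not tested.

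A test of the difference itself set few probe sets of IR63731 apart. Against the mean salt change of the other 3 genotypes no probe set passed (limma, 0 of 57194, 1998 or 3.49% at an unadjusted p below 0.05), and none passed against IR29 (1755 at that threshold) or Pokkali (2175). Against FL478 2 probe sets passed (0.00350%), and 2771 had an unadjusted p below 0.05. With the replicate number as a block the counts were 2 against the mean, 0 against IR29, 5 against FL478 and 1 against Pokkali. Without salt array 2 of IR63731, 13 probe sets passed against Pokkali and 2 against the mean of the others. Without the 3 arrays between genotypes 2 passed against IR29 and 4 against FL478.

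One called probe set had the smallest p among the 41 for the difference from the mean of the other genotypes. OsAffx.7735.1.S1_at, with no listed gene, read 3.65, 3.29 and 3.56 in control and 4.89, 4.48 and 5.13 in salt (log2 change 1.33, SE 0.16, limma adjusted p = 0.00321). The 17 arrays of the other genotypes ran from 3.05 to 3.70 with a median of 3.34, so only the IR63731 salt arrays stood above 4. Values of 3 to 4 lie near the level of undetected probe sets. The changes were -0.03 in FL478, -0.02 in IR29 and 0.13 in Pokkali. Its difference from their mean was 1.30 (SE 0.19, limma adjusted p = 0.115, and 0.00708 with the replicate number as a block). Without the 3 arrays between genotypes the changes were -0.08 in FL478 and 0.21 in IR29, and that adjusted p was 0.264. In 4 more of the 41 the same difference had an unadjusted p below 0.05, with an adjusted p of 1.0. Among them, Os.54555.1.S1_at changed by -1.86 in IR63731 and by -0.45, -0.39 and -0.53 in FL478, IR29 and Pokkali. OsAffx.31304.1.S1_at changed by 1.69 in IR63731 and by 1.41, -0.33 and 0.08 in these lines. Os.24700.1.A1_at changed by -0.82 in IR63731 and by -0.0, -0.03 and -0.26 in FL478, IR29 and Pokkali. Its 17 arrays of the other genotypes read 2.86 to 3.37, near the level of undetected probe sets, so a fall could not be measured there. Os.20516.1.S1_at changed by -0.87 in IR63731 and by -0.08, -0.34 and -0.18 in the same 3 lines.

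The clock genes PCL1 and CCA1 and a measure of RNA quality moved with the replicate number more than with salt. The clock gene PCL1, which peaks late in the day, read 4.29, 8.95 and 4.60 in control and 6.83, 9.61 and 4.86 in salt, and CCA1, which peaks around dawn, read 11.64, 10.03 and 11.97 and then 10.87, 9.09 and 11.50. Number 2 was thus high in PCL1 and low in CCA1 in both groups, and within each number the salt array had more PCL1 and less CCA1 than the control array. With a clock index of PCL1, PRR1 and GI less CCA1 in the model the calls were 60 higher and 58 lower, all 41 among them. The difference between 3 prime and 5 prime control probe sets, a sign of RNA quality, was 0.637, 0.741 and 0.603 in control and 0.655, 0.775 and 0.688 in salt, and with that measure in the model the calls were 10 higher and 9 lower. SMR1, OsCASPL2D1 (limma adjusted p = 0.0749 each) and ADK-A (0.0540) lost the call in that model, and OsNrx1-1 and TPK2 passed. SMR1 and OsCASPL2D1 also lost it after another quantile normalization (0.0608 each), and all 5 lost it in a fit of the 6 IR63731 arrays alone (0.0695 to 0.204).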

How the data were processed

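Values were those of the series table. The authors deposited log2 values per probe set. The submitters' processing notes name RMA without a version, and its settings are not given in the sources read here. Nothing was normalized again in the main setting. Arrays give no read depth, so 3 arrays per group limit the precision.

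A limma 3.58.1 fit (R 4.3.3) of 8 group means over 23 arrays tested IR63731 salt against control and its difference from the other genotypes, adjusting p after Benjamini and Hochberg over 57194 probe sets at a threshold of 0.05. Rows of the table were analysed with Python 3.11.15 and pandas 2.3.3. Same-numbered control and salt arrays of IR63731 deviated together (correlation of deviations from group means 0.1422, 0.2962 and 0.2522 for numbers 1 to 3, each over 0.1), so the numbers were taken to pair the arrays. The labels do not say what the number stands for, and the pairing was read from the data. Values from the blocked fit stand beside the results it changes.

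Names came from the platform annotation and RefSeq: 22436 probe sets have 1 gene, 95 several, and 2458 of 17905 genes have a name. A gene stands for its probe set with the highest mean, except that any probe set counted where named genes passing with the block are given. Of the 81 named genes followed through the alternatives, 20 have several probe sets, and these share the same direction in 14. The rule for naming took the 15 largest passing, non-overlapping changes each way and up to 4 passing members of each list or else its largest change. It also took the largest differences from other genotypes and 12 genes known from salt work. Where fewer passed, up to 5 each way at an unadjusted p below 0.01 were added as values only. Not all of these are named in the text. For ethylene, iron, and zinc, copper and manganese, the members shown are not those with the largest change. Further list members, block-only genes and all named genes over 1.5 log2 units were picked after their values were seen. The members, lists and alternatives were chosen with earlier results of these data known. The fit was tested on simulated data. No sequences or coordinates were used.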

Additional observations from a re-analysis of the deposited data

Results flagged for a closer look

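A pair of probe sets differed between genotypes in a test of the difference itself, in the comparison of the salt change in IR63731 with that in FL478. Os.15516.1.S1_at differed by 2.28 log2 units (SE 0.28, limma adjusted p = 0.00791). In IR63731 it read 3.17, 3.00 and 3.13 in control and 2.98 on all 3 salt arrays, a change of -0.12, while the change was -2.40 in FL478, 0.08 in IR29 and -0.30 in Pokkali. Os.21280.1.S1_at differed by 1.90 log2 units (SE 0.25, limma adjusted p = 0.00924). It read 4.90, 4.66 and 4.65 in control and 4.52, 4.52 and 4.33 in salt in IR63731, a change of -0.28, and changed by -2.18 in FL478, -0.80 in IR29 and -0.42 in Pokkali. In IR63731 both groups of Os.15516.1.S1_at lay near the level of undetected probe sets, so a fall could not be measured there, and the values of Os.21280.1.S1_at lay near the median probe set. Whether these levels account for the differences from FL478 was not tested. Without FL478 control array 3, FL478 salt array 2 and IR29 control array 1 the differences were 2.53 (SE 0.26, limma adjusted p = 0.00231) and 1.87 (SE 0.23, 0.0151). The annotation used here gives neither a gene name.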

How the results depend on the processing

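The count of 41 called probe sets moved to 19 with the RNA quality covariate, 195 with array weights, 118 with the clock covariate, 3 with the 6 IR63731 arrays alone, 132 with those 6 arrays and the replicate block, 199 with the replicate block over all arrays, and 7 to 39 without 1 array. It was 46 with a trended, robust variance, 47 with probe sets above the median level, 35 after another quantile normalization, 40 without probe sets ending in _s_at or _x_at, and 46 without the 3 arrays between genotypes. Calls against the mean of the other genotypes were 0 and became 1 with array weights, 1 with the clock covariate, 2 with the replicate block and 0 to 2 without 1 array. Those against IR29 were 0 and became 1 with array weights and 2 without the 3 arrays. Those against FL478 were 2 and became 4 with the clock covariate, 1 with the level filter, 5 with the replicate block, 4 without the 3 arrays and 1 to 4 without 1 array. Those against Pokkali were 0 and became 2 with array weights, 1 with the replicate block and 0 to 13 without 1 array. The causes were not tested, apart from fewer arrays in the fits that leave some out.

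Of 1360 values of 81 named genes under these alternatives 13 changed sign, in 6 genes, all of them not called. Many of the 1360 could not change sign. The change stays that of the main fit with the trended, robust variance, the probe set filters, the replicate block, the 6 IR63731 arrays alone or the 3 arrays left out. Nor could a called gene turn without 1 array, as its groups did not overlap. Pir7b (-0.12) became 0.07 with array weights and -0.50 to 0.16 without 1 array. PCL1 became -0.38 with the clock covariate, of which it is a part, and ranged from -0.10 to 2.66 without 1 array. Without 1 array, LPR1 (0.06) ranged from -0.14 to 0.31, HK4 from -0.02 to 0.21, CAB2R from -1.63 to 0.09 and P5CS1 from -0.07 to 0.06. CAB2R turned without control array 3. Array values near 3 to 4 lie close to the level of undetected probe sets and limit folds there.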

Other observations

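The named genes whose salt change in IR63731 differed most from that in a single other genotype included some with little change in IR63731 itself. Pir7b, a defence-linked esterase gene, changed by -0.12 in IR63731 and by -3.70 in FL478, a difference of 3.58 (SE 0.61, limma unadjusted p = 1.27e-05, adjusted p = 0.132). BGLU16, a beta-glucosidase gene, changed by 0.68 in IR63731 and 1.81 in FL478 (difference -1.13, SE 0.31, adjusted p = 0.975). PSK4, for a precursor of the growth peptide phytosulfokine, changed by -0.78 in IR63731 and 1.25 in Pokkali (difference -2.02, SE 0.67, adjusted p = 0.960). None of these differences passed after adjustment. Without the 3 arrays between genotypes they were 3.30 for Pir7b (SE 0.70, limma adjusted p = 0.577), -1.56 for BGLU16 (SE 0.27, 0.193) and -2.02 for PSK4 (SE 0.66, 0.998).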
